A study of Caenorhabditis elegans with 2 samples.

Results

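FOS-1 peaks in the intergenic DNA of Caenorhabditis elegans autosomes were examined in whole L1 larvae, the first larval stage. A peak belonged to the set if the authors' irreproducible discovery rate (IDR) procedure had kept it, if it lay on an autosome, and if its summit was outside every protein-coding gene body and outside every protein-coding promoter window. The window reached 1000 bp upstream and 200 bp downstream of each annotated 5′ end. The set held 302 peaks, 15.9% of the 1895 IDR peaks (95% Clopper-Pearson interval 14.3 to 17.7%) and 19.7% of the 1536 on autosomes. The comparison sets were 962 autosomal IDR peaks at protein-coding promoters, 246 in introns of protein-coding genes, and 3732 weaker entries of the pooled list that met the same location rule but were not on the IDR list. The authors label the pooled list as peaks and background for the IDR procedure, so the weaker entries can include background. Their median signal was 16.6, against 58.9 for the 302 peaks. The 302 summits formed 283 runs and had 281 different genes with the nearest protein-coding 5′ end, so a few peaks shared a locus.

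The data are chromatin immunoprecipitation followed by sequencing (ChIP-seq) of 2 biological replicates, separate biosamples of strain OP304 that form 1 group. The labels give its genotype as unc-119(ed3) III with the transgene insertion wgIs304, which carries eGFP-tagged fos-1, and the worms as mixed sex. Both replicates carry the transgene and the unc-119 allele, the chromatin came from all tissues of the larva, and no group without the tag was compared. The antibody is labelled fos-1.

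Fos proteins are basic leucine zipper (bZIP) transcription factors that bind DNA as dimers with Jun proteins at AP-1 sites, TGACTCA or its other-strand form TGAGTCA. In the worm, FOS-1 is known for its role in the anchor cell, which breaches the basement membrane under it when the vulva forms. Worm genes are packed closely and most control elements lie just upstream of genes, so peaks away from promoters mark the DNA in which distal elements and noncoding genes can lie.

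The sequences under the summits of highest signal are shown because the motif results below turn on them. The set holds 8 of the 10 peaks of highest signal, each read from 40 bases left to 40 bases right of the summit on the + strand of the RefSeq copy of WBcel235, the assembly the files call ce11. Capitals mark the GA repeat, GAGAGAG or CTCTCTC on the other strand, the 6-mer ACGCAG or CTGCGT on the other strand, and the GC-box GGGCGG or CCGCCC on the other strand. Other motifs searched below are not marked, among them TTGCGCAA (C/EBP), which lies in the bases by cmd-1. In these bases 5 of the 8 hold the GA repeat or ACGCAG, and those by ins-13, egl-9 and cmd-1 hold neither. Each is named by the gene with the nearest protein-coding 5′ end.
din-1, chrII:11635846-11635926: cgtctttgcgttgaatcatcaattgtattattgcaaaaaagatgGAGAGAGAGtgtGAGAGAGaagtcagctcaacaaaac
ins-13, chrII:5543529-5543609: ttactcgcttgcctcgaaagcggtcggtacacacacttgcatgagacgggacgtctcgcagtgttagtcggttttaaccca
mtm-3, chrIII:3801494-3801574: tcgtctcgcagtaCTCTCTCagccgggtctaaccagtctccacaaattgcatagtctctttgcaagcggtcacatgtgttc
egl-9, chrV:10466752-10466832: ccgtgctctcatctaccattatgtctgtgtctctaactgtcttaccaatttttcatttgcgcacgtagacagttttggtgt
hif-1, chrV:20778409-20778489: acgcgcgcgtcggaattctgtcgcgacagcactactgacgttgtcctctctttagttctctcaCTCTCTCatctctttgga
M02B1.3, chrIV:12834515-12834595: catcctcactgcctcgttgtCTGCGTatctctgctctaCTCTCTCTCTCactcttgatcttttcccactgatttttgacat
F54F12.1, chrIII:13061288-13061368: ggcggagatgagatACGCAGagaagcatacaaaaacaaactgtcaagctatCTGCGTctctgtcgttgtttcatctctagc
cmd-1, chrV:1151458-1151538: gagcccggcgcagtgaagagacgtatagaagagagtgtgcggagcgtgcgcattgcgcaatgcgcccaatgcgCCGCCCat

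The AP-1 site was present at 13 of the 302 peaks within 50 bp of the summit. Of these, 7 are shown, because the AP-1 site is the sequence that Fos-Jun dimers are known to bind. The other 6, the strongest by Y48G10A.3 among them, are named below without sequence or only counted. Capitals mark the site in 31 bases centred on it, + strand.
ptc-1, chrII:7887524-7887554: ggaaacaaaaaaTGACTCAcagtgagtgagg
lbp-4, chrV:7822843-7822873: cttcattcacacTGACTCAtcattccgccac
sms-3, chrIII:1602932-1602962: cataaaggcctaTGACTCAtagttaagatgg
ptp-5.1, chrIV:5169307-5169337: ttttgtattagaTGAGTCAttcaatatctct
plst-1, chrIV:1284979-1285009: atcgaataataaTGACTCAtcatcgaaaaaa
F53H2.3, chrV:20418044-20418074: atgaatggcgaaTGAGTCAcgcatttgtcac
F47D12.6, chrIII:6290983-6291013: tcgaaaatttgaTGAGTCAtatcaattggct

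The peaks of highest signal lay near genes of several kinds. The signal is the authors' own value per entry and has no stated unit, and its scale differs between lists, so ranks are given beside it. The highest lay 2277 bp upstream of din-1, which encodes a corepressor partner of the nuclear receptor DAF-12. Its signal was 265.6 in the pooled list, 166 in replicate 1 (rank 45) and 102 in replicate 2 (rank 39). It ranked nearly alike in both replicates.

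Another lay by ins-13, an insulin-like peptide gene, and 29 bp upstream of the spliced leader gene sls-2.2. It had 261 in the pooled list, 207 in replicate 1 (rank 29) and 67.6 in replicate 2 (rank 104), and so stood higher in replicate 1. A second peak at this locus, 200 bp away by its summit, overlapped the same entry of replicate 2, which does not tell them apart. Upstream of mtm-3, of the myotubularin phosphatase family, a peak had 208 in the pooled list and ranks of 73 and 68 in replicates 1 and 2.

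Peaks of the highest 10 also lay 1725 bp upstream of egl-9, the prolyl hydroxylase that marks HIF-1 for degradation, and 1958 bp upstream of hif-1 itself. The egl-9 peak had a signal of 197 in the pooled list, 125 in replicate 1 and 67.4 in replicate 2. Its summit lay in the noncoding genes F22E12.10 and F22E12.9. The hif-1 peak had 193 in the pooled list, 143 in replicate 1 and 59.99 in replicate 2. Others of the highest 10 were nearest to M02B1.3, F54F12.1, nlp-40 (a neuropeptide-like gene) and cmd-1 (calmodulin), with pooled signals of 167 to 175. The summit by cmd-1 lay in the noncoding gene linc-128. All of the highest 10 were in the top 1895 entries of both replicates. Within 50 bp of the summit, 7 of them held the GA repeat, 5 held ACGCAG and 8 held at least one of these.

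Over the whole set the pooled signal had a median of 58.9 and ran from 42.5 to 265.6, and only 6 of the peaks were among the 100 IDR peaks of highest signal. Replicate 1 gave these regions a median signal of 37.9 and replicate 2 a median of 23.04, on their own scales. Of the 302, 299 overlapped an entry in both replicate lists, by at least 1 bp. Over these 299 the signals of the replicates had a Spearman correlation of 0.538 and a Pearson correlation of 0.61 on the log2 scale; the peaks had been retained for their rank in both replicates, so this is a description. The usual width of an entry was 340 bp, and all 10 narrower ones were among the 12 of highest signal.

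**Figure D1:**
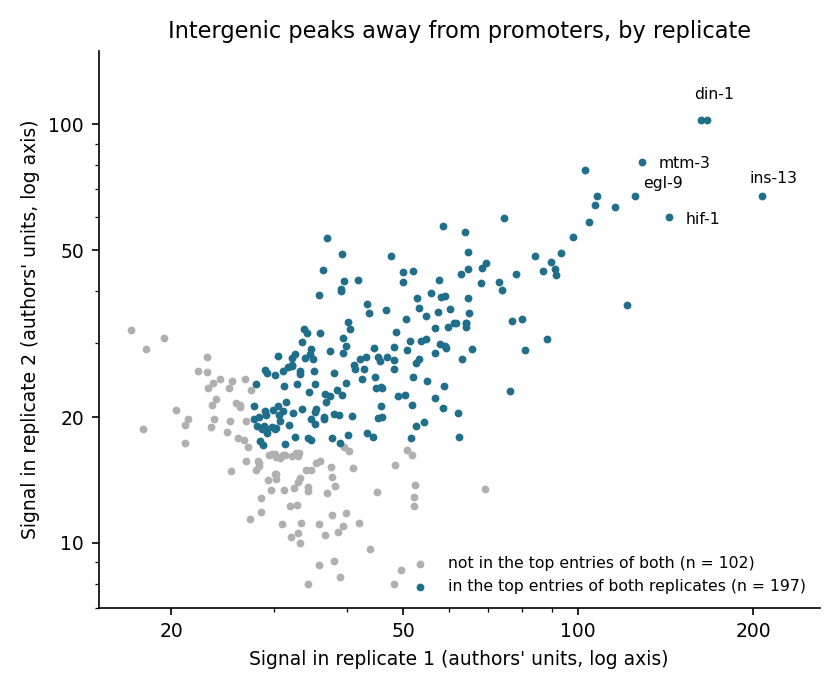
Signal of the 299 intergenic peaks found in both replicate lists, replicate 1 on the x axis and replicate 2 on the y axis (authors' units, both axes logarithmic); 1 point is 1 peak, and 5 of those of highest pooled signal carry the name of the gene with the nearest 5′ end. The 197 coloured points are among the top 1895 entries of both replicates, and din-1 stands near the top in both.

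Among the IDR peaks, the intergenic ones had a lower median signal than those at promoters. Intronic peaks, also away from promoters, had a median signal of 63.2 and were not tested for this. Of the 302, 43.7% were above 63.3, the median signal of autosomal IDR peaks, against 52.4% of the 962 promoter peaks (Fisher's exact test, two-sided, p = 0.0100), and the medians were 58.9 and 64.8. The IDR procedure retained 302 of the 4034 pooled entries that met the location rule (7.49%) against 1234 of the 12286 other autosomal entries (10.04%; Fisher's exact test, two-sided, p = 8.86e-07), where 9.41% of all autosomal entries were retained. The share in the top entries of both replicates was 65.2% (59.6 to 70.6%) for intergenic peaks and 69.1% (66.1 to 72.0%) for promoter peaks (Fisher's exact test, two-sided, p = 0.229). That last comparison depended on the setting: with a promoter window of 500 bp upstream to 100 bp downstream the shares were 64.2% and 70.1% (p = 0.0390, Fisher's exact test), and with replicate 1 alone defining the peaks 63.0% and 72.1% (p = 0.00246, Fisher's exact test). When each replicate's top 1895 entries were placed by the same rule, 322 and 291 qualified (mean 306.5 ± 21.9 SD, n = 2). The weakest of the 302 had a signal of 42.4732 and the strongest entry of the same location rule left off the IDR list 42.4501. Within this rule retention thus split the entries by signal. The comparisons of signal, retention and replicate tops therefore describe selected peaks and are not independent of each other. Retention is itself part of the rule that defined the set, so its p-value is no separate support for a lower signal.

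The GA repeat was the most common of 10 motifs searched at these peaks, on both strands and within 50 bp of the summit. It occurred at 94 of 302 peaks, 31.1% (25.9 to 36.7%). In windows of the same width centred 400 bp to the right it occurred at 2.32% (exact McNemar test, two-sided, adjusted p = 1.68e-21). Among promoter peaks it occurred at 11.2% (Fisher's exact test, adjusted p = 8.06e-14), and among the weaker intergenic entries at 5.33% (adjusted p = 2.43e-38, Fisher's exact test). Intronic peaks held it at 24.8%, and the difference from intergenic peaks did not pass (adjusted p = 0.551, Fisher's exact test); the intervals were 25.9 to 36.7% and 19.5 to 30.7%. In the top entries of each replicate alone the share was 27.02% and 31.96% (29.5 ± 3.49% SD, n = 2). The motifs had been chosen with earlier results of these data known, so the p-values for the GA repeat may be too small.

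The AP-1 site was present at 13 peaks, 4.30% (2.31 to 7.25%), against 0.662% of flanks (exact McNemar test, adjusted p = 0.0369) and 1.85% of weaker entries (Fisher's exact test, adjusted p = 0.0219). Promoter peaks held it at 3.12%, and no difference from them passed (adjusted p = 0.527, Fisher's exact test). Intronic peaks held it at 6.50%, above the intergenic share, and that difference did not pass either (adjusted p = 0.551, Fisher's exact test). The difference from flanks did not pass with a 25 bp window (adjusted p = 0.625), with a 2000 bp promoter window (0.107), with the left flank (0.123) or with replicate 2 alone (0.106), all by the exact McNemar test. The difference from weaker entries did not pass with the 25 bp window (adjusted p = 0.629, Fisher's exact test). The same letters in another order, TCACTGA or TCAGTGA, were found at 2.32% of peaks and 1.66% of flanks. In each replicate alone the AP-1 share was 4.97% and 4.47% (4.72 ± 0.355% SD, n = 2).

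Of the 13 peaks with an AP-1 site, 3 also held a GA repeat, and 6 were in the top entries of both replicates. The highest was nearest to Y48G10A.3, with a pooled signal of 107, 77.0 in replicate 1 and 33.9 in replicate 2. A peak 5691 bp upstream of ptc-1, which encodes a Patched-type membrane protein, had 78.1 in the pooled list, 51.4 in replicate 1 and 30.4 in replicate 2. The others of the highest 8 were nearest to T23B3.8, mstr-1, lbp-4 (a lipid-binding protein), ins-30 (an insulin-like peptide), dnj-27 (a DnaJ protein of the endoplasmic reticulum) and sms-3 (sphingomyelin synthase), with pooled signals from 49.5 to 81.1. The AP-1 share by signal, in 3 groups of like size, was 4% of the 100 strongest, 1.98% of the 101 in the middle and 6.93% of the 101 weakest, whereas the GA repeat was at 40%, 25.7% and 27.7%.

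**Figure D2:**
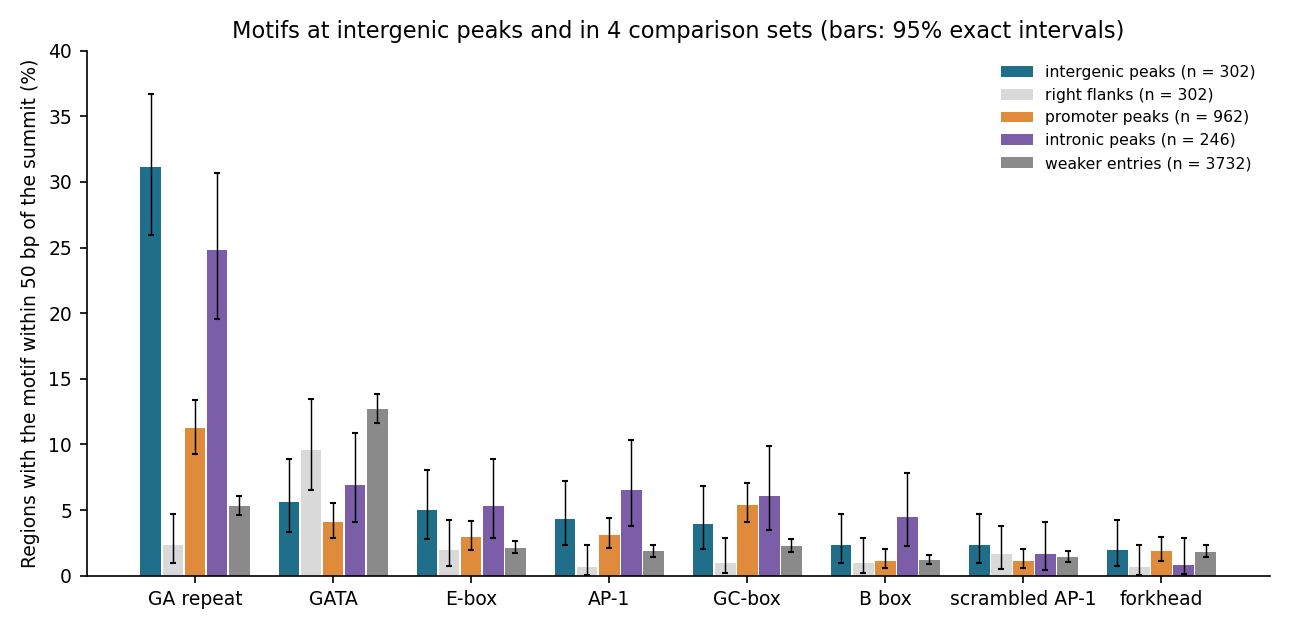
Share of regions with each motif within 50 bp of the summit (y axis, %) for the 302 intergenic peaks, their right flanks, 962 promoter peaks, 246 intronic peaks and 3732 weaker entries; error bars are 95% Clopper-Pearson intervals. The GA repeat stands at 31.1% of intergenic and 24.8% of intronic peaks, and every other motif is at or below 5.63% of intergenic peaks.

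The E-box CACGTG, a site of basic helix-loop-helix factors, was at 4.97% of the peaks and 2.14% of weaker entries (Fisher's exact test, adjusted p = 0.0158). That difference did not pass with 1 entry per run of summits (adjusted p = 0.0525) or with replicate 2 alone (0.374), both by Fisher's exact test. The difference from the 1.99% of flanks did not pass (adjusted p = 0.192, exact McNemar test), but it did with the left flank (0.0117) and with replicate 1 alone (0.0130). With replicate 1 alone the E-box was also more common than at promoter peaks (5.90% of peaks, adjusted p = 0.0373, Fisher's exact test). The GATA site TGATAA went the other way, at 5.63% of the peaks and 12.7% of weaker entries (Fisher's exact test, adjusted p = 0.000555), but this did not pass with a 2000 bp promoter window (adjusted p = 0.0536, Fisher's exact test) or with replicate 2 alone (0.333). The GC-box GGGCGG was at 3.97% of peaks and 0.993% of flanks (exact McNemar test, adjusted p = 0.117), and this passed with the 500 bp promoter window (0.0488) and with a motif window of 100 bp (0.000193). TGTTTAC (forkhead) was at 6 peaks, GTTCGANNC (the B box inside tRNA genes) at 7, and TGACGTCA (CRE) and TTGCGCAA (C/EBP) at 1 each, and no difference from flanks, promoter peaks or weaker entries passed for these in the 50 bp window and with the location rule as given. With the 500 bp promoter window the B box was at 2.86% of peaks and passed against promoter peaks (adjusted p = 0.0243) and weaker entries (adjusted p = 0.00842), both by Fisher's exact test. Intronic peaks held the E-box at 5.28%, the GATA site at 6.91% and the GC-box at 6.10%. Each was above the intergenic share, and none of these differences passed by Fisher's exact test. Of the 302 peaks, 148 (49.0%) held at least one of the 9 motifs other than the scrambled one.

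A search without fixed motifs, in the same windows, gave the GA repeat again and a second sequence. GAGAGA lies within the GA repeat, so its lead is no separate support for that repeat. Of 2080 6-mers counted on both strands, 133 (6.39%) were higher at summits than in right flanks and 148 (7.12%) lower (exact McNemar tests, adjusted p under 0.05). GAGAGA led, at 51.0% of summits and 4.30% of flanks (exact McNemar test, adjusted p = 6.12e-33). By adjusted p, the first that was no dinucleotide repeat was ACGCAG, at 26.8% of summits (21.9 to 32.2%) and 0.662% of flanks (exact McNemar test, adjusted p = 4.70e-20), followed by AGAGAC and CGTCTC. By share at summits, AGAGAA with 44.4% and several other GA-rich 6-mers stood above it. Only purines on one strand made up 26 of the 133 higher 6-mers and 64 of all 2080. Of the 148 lower ones, 103 had at most 1 G or C, a kind that 228 of all 2080 belong to, with TTAAAA at 4.30% of summits and 33.8% of flanks. G and C made up 45.5% of the bases around the median summit and 32.7% of the flank, so base composition moved with these differences, and its part in them was not tested. Promoter peaks had the same median at the summit, 45.5%.

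ACGCAG was singled out after its values were seen, so its shares in other sets are descriptions. It was at 17.7% of promoter peaks, 22.8% of intronic peaks and 4.02% of weaker entries. Among its 95 occurrences at the 302 peaks, a G stood directly before it in 83.2%, an A before that in 85.3% and a G before that in 82.1%. The longer GAGACGCAG was at 18.5% of intergenic peaks, 9.67% of promoter peaks and 2.25% of weaker entries. The GA repeat and ACGCAG occurred together at 35 of the 302 peaks, and 140 (46.4%) held at least one of them, against 25.99% of promoter peaks, 43.5% of intronic peaks and 8.39% of weaker entries. In the same 3 groups by signal ACGCAG was at 37%, 22.8% and 20.8% of the peaks, from strongest to weakest.

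**Figure D3:**
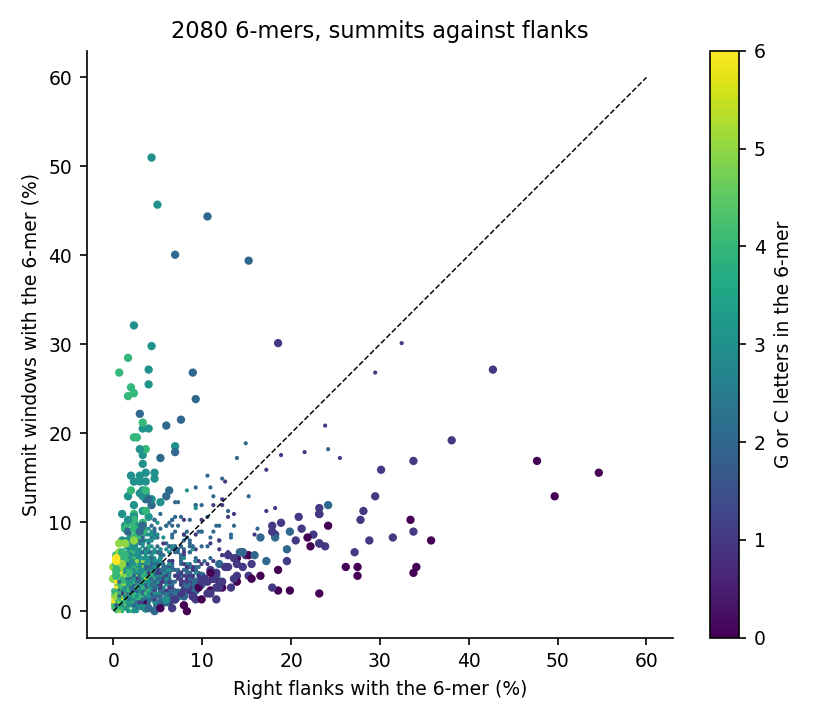
Share of the 302 right flanks (x axis, %) and of the 302 summit windows (y axis, %) that hold each of 2080 6-mers; large points have an adjusted p under 0.05 (exact McNemar test), colour gives the number of G or C letters, and the dashed line marks equal shares. The point at the top, at 51.0% and 4.30%, is the GA-rich leader, and 6-mers without G or C lie below the line.

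Both sequences were centred on the summits. The central 50 bp bin held a GA repeat in 19.2% of the peaks and ACGCAG in 17.9%, and both were at 0.993% or less in the bins centred 300 bp away on either side. Of the 279 overlapping matches to the GA repeat within 50 bp, 144 were within 20 bp of the summit. AP-1 sites were at 1.98% in the central bin, and GATA sites at 3.97% there and up to 8.61% in outer bins. The median share of soft-masked (repeat-annotated) bases was 17.8% at summits and 40.6% in flanks.

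**Figure D4:**
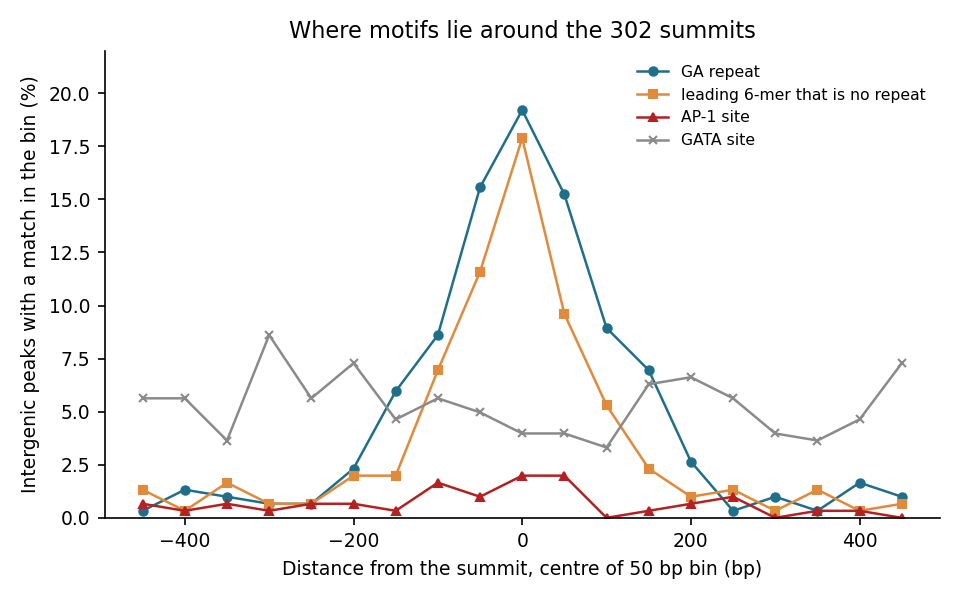
Share of the 302 intergenic peaks with a match in each 50 bp bin (y axis, %) by distance from the summit (x axis, bp), for the GA repeat, ACGCAG (the leading 6-mer that is no repeat), the AP-1 site and the GATA site. The GA repeat and the 6-mer reach 19.2% and 17.9% in the central bin, while GATA sites show no central rise.

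Genes of snoRNAs, snRNAs, tRNAs, lincRNAs, microRNAs and the class ncRNA lay at these peaks more often than at weaker entries of the same location rule, and piRNA genes and pseudogenes less often. The location rule used protein-coding genes, so noncoding genes were free to lie there. A peak was counted at a noncoding gene when its summit was in the gene or from 1000 bp upstream to 200 bp downstream of its 5′ end. The same peak could count in several classes, so the classes are not independent. Noncoding classes were not compared with promoter or intronic peaks, so the differences are from weaker entries, background included, only. Genes of small nucleolar RNAs (snoRNAs), whose RNAs guide chemical modification of ribosomal RNA, were at 19 peaks (6.29%, 3.83 to 9.65%) against 0.991% of weaker entries (Fisher's exact test, adjusted p = 7.80e-08). Of these 19 summits, 5 were in the snoRNA gene and 13 of the other 14 were at most 200 bp upstream of it. Of 63 autosomal snoRNA genes whose own 5′ end met the location rule, 19 had one of the 302 peaks in the same window and 20 more had a weaker entry only.

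The strongest snoRNA peak was in F30H5.4, with a pooled signal of 103.9, 57.8 in replicate 1 and 42.5 in replicate 2. F12F6.11 had a summit 59 bp upstream, with 84.6 in the pooled list, 50.5 in replicate 1 and 34.3 in replicate 2. The other snoRNA genes of the highest 4 were T27A3.9, with a pooled signal of 95.4, and C16D9.10, with 82.1. Both printed sequences hold ACGCAG, and capitals mark it (CTGCGT on the other strand) and, upstream of the gene in the F30H5.4 sequence, the B box. These examples are not typical: ACGCAG was at 14% of the 50 peaks at a snoRNA, snRNA, tRNA, microRNA or lincRNA gene. At the other 252 peaks it was at 29.4%.
F30H5.4, chrIII:502771-502851: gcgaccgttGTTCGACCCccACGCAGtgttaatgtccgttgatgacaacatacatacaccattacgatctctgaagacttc
F12F6.11, chrIV:11549883-11549963: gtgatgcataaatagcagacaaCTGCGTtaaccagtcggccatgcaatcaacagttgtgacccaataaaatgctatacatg

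Genes annotated as small nuclear RNA (snRNA) were at 5 peaks, 1.66% against 0.161% of weaker entries (Fisher's exact test, adjusted p = 0.00361). All 5 were at genes named sls-2, which encode the SL2 spliced leader RNA that is joined to the downstream genes of worm operons: sls-2.2 with 2 peaks, and sls-2.17, sls-2.9 and sls-2.13 with 1 each. The 2 peaks at sls-2.2 overlapped the same entry of replicate 2. The summit 84 bp upstream of sls-2.9 was also 48 bp upstream of a tRNA gene and was counted in that class too. Of 7 autosomal sls-2 genes whose 5′ end met the location rule, 4 had one of the 302 peaks and 2 more a weaker entry, whereas none of 12 sls-1 genes had either. With a 2000 bp promoter window the snRNA difference did not pass (adjusted p = 0.106, Fisher's exact test). The names were looked up after the count was seen. Near-identical copies of such genes can share reads, and the authors' placement of such reads is not given in the sources used here. At 67.9, 53.6 and 47.9, the pooled signals at sls-2.17, sls-2.9 and sls-2.13 were lower than at sls-2.2.

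Transfer RNA genes were at 11 peaks (3.64% against 1.07%, Fisher's exact test, adjusted p = 0.00363) and long intergenic noncoding RNA (lincRNA) genes at 11 (3.64% against 1.21%, adjusted p = 0.00502, Fisher's exact test). The lincRNA summits lay in the gene in 9 of 11, led by linc-128 with a pooled signal of 167, linc-91 with 114.9, K07C10.8 with 71.0 and linc-81 with 62.4. MicroRNA genes were at 6 peaks (1.99% against 0.563%, Fisher's exact test, adjusted p = 0.0185): cel-mir-52 at 2, and cel-mir-53, cel-mir-80, cel-mir-228 and cel-mir-8209 at 1 each. Upstream of cel-mir-52, of the mir-51 family, the nearer peak had 81.2 in the pooled list, 39.3 in replicate 1 and 49.0 in replicate 2. The class that the annotation calls ncRNA was at 58 peaks (19.2% against 13.99%, adjusted p = 0.0208, Fisher's exact test). Many of these 58 were also counted in the classes above, among them those at sls-2.2, T27A3.9, F12F6.11 and C16D9.10. The ncRNA share without such peaks was not tested. With replicate 2 alone the differences for lincRNA, microRNA and ncRNA did not pass (adjusted p = 0.0628, 0.358 and 0.0628, Fisher's exact test), nor did that for ncRNA with 1 entry per run of summits (0.0804). With a window of 200 bp upstream the microRNA difference did not pass either (adjusted p = 0.0546, Fisher's exact test).

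Other classes were at these peaks less often. Pseudogenes were at 1.99% of peaks against 5.89% of weaker entries (Fisher's exact test, adjusted p = 0.00502). Genes of piRNAs, small RNAs of the germ line, were at 6.62% against 11.95% (Fisher's exact test, adjusted p = 0.00794). Nearly all of these genes, 14714, lie on IV, and within IV the shares were 25.97% and 42.5% (Fisher's exact test, p = 0.00540). With a window of 200 bp upstream, no peak was at a piRNA gene (0 of 302, upper 95% limit 1.21%) against 5.65% of weaker entries (Fisher's exact test, adjusted p = 5.03e-07). With a 2000 bp promoter window neither difference passed (adjusted p = 0.0664 for pseudogenes and 0.151 for piRNA genes, Fisher's exact test).

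**Figure D5:**
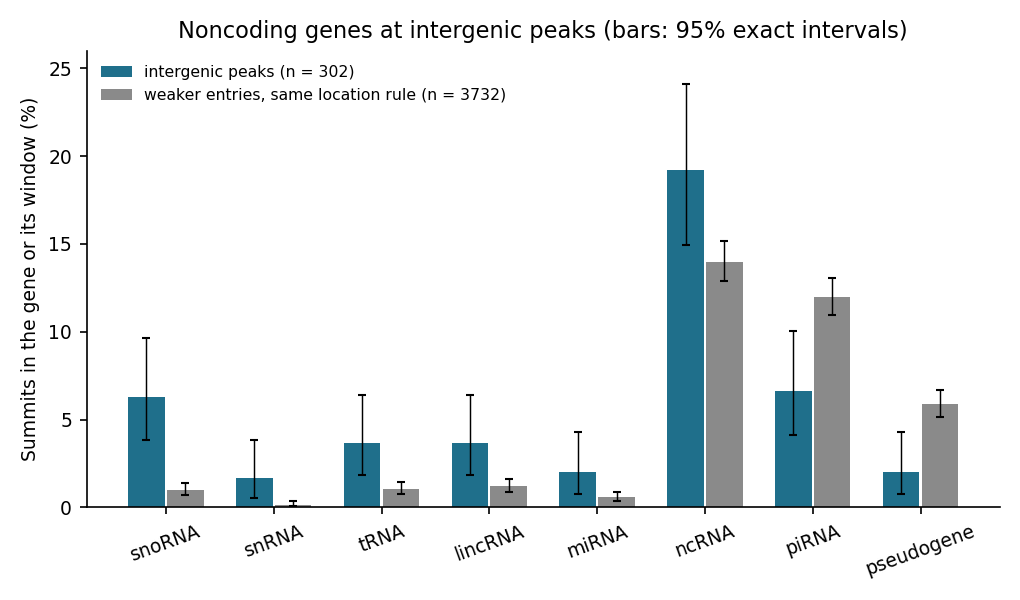
Share of summits in a noncoding gene or its window (y axis, %) by annotated class, for the 302 intergenic peaks and the 3732 weaker entries of the same location rule; error bars are 95% Clopper-Pearson intervals. The snoRNA class stands at 6.29% against 0.991%, and piRNA genes and pseudogenes are lower at the peaks.

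In all, 50 peaks (16.6%) were at a snoRNA, snRNA, tRNA, microRNA or lincRNA gene, against 3.97% of weaker entries. The GA repeat was at 14% of these 50 and at 34.5% of the other 252, and ACGCAG at 14% and 29.4%. The median pooled signals were 60.8 and 57.4. This split was made after the classes had been tested, so it is a description.

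The location rule itself places summits in gaps between genes. The nearest protein-coding 5′ end was at a median of 2277.5 bp, against 2540 bp for weaker entries of the same rule, and the gap between the flanking genes had a median of 5951 bp (301 peaks with a gene on both sides) against 7105 bp. The summit was upstream of the nearest 5′ end in 230 of 302. The rule leaves out gene bodies and so favours that side, and the share among weaker entries was not counted. A 5′ end was within 2000 bp for 43.4% of the peaks and 36.4% of the weaker entries (Fisher's exact test, two-sided, p = 0.0184). With a 2000 bp promoter window, which itself removes most such peaks, the shares were 8.56% and 9.22% (Fisher's exact test, p = 0.896). With 1000 bp already removed by the rule, 28 peaks were 1000 to 1200 bp upstream, the closest at bud-31 with 1007 bp, while 36 promoter peaks were 800 to 1000 bp upstream. At 135 peaks a 3′ end was nearer than any 5′ end, a count not made for weaker entries. The GA repeat was at 31.8% of the 88 peaks nearer than 1500 bp and at 27.5% of the 40 farther than 5000 bp.

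Only 6 peaks were farther than 10000 bp from a 5′ end. The farthest was 13417 bp from irld-18, in a gap of 35563 bp, with a pooled signal of 69.8, 52.6 in replicate 1 and 18.99 in replicate 2. The next were 11532 bp from the 5′ end of snt-1 (synaptotagmin), 11477 bp from K01F9.2, 10719 bp from srab-24 (a chemoreceptor) and 10536 bp from ari-2 (an ariadne-type ubiquitin ligase), with pooled signals of 42.5 to 68.4. At K01F9.2 and ari-2 the summits were 284 bp upstream of cel-mir-80 and 355 bp upstream of cel-mir-228.

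The flanking genes were divergent at 107 peaks (35.4%), in tandem at 166 (54.97%) and convergent at 28 (9.27%), and none of these shares differed from the weaker entries (Fisher's exact tests, adjusted p = 0.509, 0.763 and 0.509). Chromosome IV held 77 of the peaks, 24.9% of its IDR peaks (20.2 to 30.1%), II held 47 (17.03%), III 60 (17.5%), V 51 (19.6%) and I 67 (19.2%). Per megabase the number ran from 2.44 on V to 4.45 on I. The middle of a chromosome, cut in 3 equal parts, held 38.4% of the peaks and 43.3% of promoter peaks (Fisher's exact test, two-sided, p = 0.142).

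Some genes had the nearest 5′ end, on either side, for several peaks. At least 2 peaks shared a nearest gene at 18 genes, and din-1 and lpin-1 (lipin, a phosphatidate phosphatase) were among those with 3. At din-1 the pooled signals were 265.6, 65.4 and 60.6 over 2300 bp, and at lpin-1 91.0, 49.8 and 45.2 over 2039 bp. Another IDR peak was within 2000 bp of 57 peaks, and 36 had a nearest gene with an IDR peak in its own promoter window.

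The nearest genes fell in several families that were counted without a test. Nuclear hormone receptors, ligand-regulated transcription factors, were nearest to 14 peaks (4.64%) and make up 1.43% of autosomal protein-coding genes. The leading ones were nhr-88, with a pooled signal of 139, nhr-20 with 117 and nhr-34 with 94.0. Chemoreceptors, which sense odours and tastes, were nearest to 5 peaks (1.66%) and make up 7.44% of the genes, among them sri-5, str-56 and str-166. At str-56 and str-166 the summits were 33 bp upstream of the snoRNA gene T06C12.16 and 24 bp upstream of the snoRNA gene T08B6.64.

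Other families had smaller counts. Factors of the bZIP class make up 0.157% of autosomal genes and were nearest to 3 peaks (0.993%), 2 by zip-7 and 1 by xbp-1, which acts in the unfolded protein response. Other developmental factors, with hif-1, dmd-6 and tbx-33, were nearest to 4 peaks (1.32%) and make up 0.493% of genes. Ribosomal proteins, with rps-28, rpl-31 and rps-13, were nearest to 3 (0.993%) and make up 0.452%. Neuropeptides and insulins, with ins-13, nlp-40 and ins-30, were nearest to 4 (1.32%) and make up 0.626%. Neuron genes, with egl-3 (a proprotein convertase), unc-64 (syntaxin) and snt-1, were nearest to 4 (1.32%) and make up 0.911%.

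Hedgehog-related genes were nearest to 3 peaks (ptc-1, ptr-13 and grd-6; 0.418% of genes) and heat shock genes to 2, both dnj-27 (0.319%). Detoxification enzymes (gst-35; 1.01%) and cuticle collagens (col-98; 0.858%) were nearest to 1 each. No peak was nearest to a homeobox factor (0.458% of genes), core histone (0.394%), innate immunity effector (1.94%), adhesion or matrix gene (0.174%) or vacuolar ATPase subunit (0.104%). Counts of 0 to 4 rest on few peaks, so no difference is read from them. In all, 44 of the 302 peaks had a nearest gene in one of the 16 lists. Gap length differs between gene families, and its part in these counts was not tested.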

How the data were processed

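ChIP-seq of eGFP-tagged FOS-1 was deposited as lists of regions in narrowPeak format for 2 replicates, their pool and the IDR procedure. The signal of each entry is the authors' own value, as deposited, with no scaling stated. The deposited −log10 q values are capped and were not used for ranking. Aligner, peak caller and IDR threshold: not given in the sources used here. Mock immunoprecipitations were not used here. No list holds read counts, so depth is unknown and intervals (95% Clopper-Pearson) cover counting error only.

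The ce11 lists were read with the WBcel235 assembly, RefSeq sequence and Ensembl release 115 genes (19985 protein-coding). The ce10 lists were not used. Summits were placed by the location rule, and overlap meant at least 1 bp. Motifs were searched within 50 bp of summits and compared with windows 400 bp to the right by exact McNemar tests, and between sets by Fisher's exact test, two-sided. Adjustment (Benjamini-Hochberg) was over 10 motifs, 2080 6-mers, 10 noncoding classes or 3 orientations. These tests treat peaks as independent, so p-values may be too small. Tests used scipy 1.17.1 with numpy 2.4.6, tables pandas 2.3.3, plots matplotlib 3.10.9, all under Python 3.11.15.

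Members, motifs and the 16 gene lists were chosen with earlier results of these data known. Genes were named by a rule: the nearest 5′ end for the 10 peaks of highest signal, for up to 8 with an AP-1 site, for the 5 farthest from a 5′ end and for up to 3 per gene list, and up to 4 noncoding genes per class. Other names were picked with their values in view. A gene that the rule selects is not reported here. Alternatives changed the promoter window, noncoding gene bodies, runs of summits, each replicate alone, the motif window, the flank, and the comparison set. The window of 200 bp upstream of noncoding genes was added after the data had been seen.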

Additional observations from a re-analysis of the deposited data

How the results depend on the processing

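Of 33 alternative values of the tested shares, 30 kept their direction and side of the threshold, and of 52 alternative counts of passing motifs, 6-mers, classes or orientations, 40 were within 1.5 times the main count. With the 2000 bp promoter window 1 motif differed from flanks, and 129 6-mers and 5 noncoding classes passed. Fewer peaks met that rule. Within 2000 bp of a 5′ end were 8.56% of peaks against 9.22%, the reverse of the main order. That window itself removes most summits so near, so this share cannot check the main one. With the 500 bp window 2 motifs differed from promoter peaks and 64.2% of peaks were in both replicates' top entries. With each replicate alone, 1 to 3 motifs differed from flanks, 1 to 2 from promoter peaks, 5 to 8 noncoding classes passed, and the share in both top sets was 63.0 to 69.1%. The 25 bp window gave 1 motif and 104 6-mers against flanks, and the 100 bp window 4 and 507. Against intronic peaks 0 of 10 motifs differed (Fisher's exact test). The causes were not tested.

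Reversals of rare motifs were small. Against promoter peaks forkhead was at 1.60% (2000 bp window) and 0.662% (25 bp), the B box at 1.12% (outside noncoding gene bodies) and 0% (25 bp), AP-1 at 1.66% (25 bp) and GC-box at 9.93% (100 bp). Against intronic peaks AP-1 stood at 4.30%, E-box at 4.97%, GATA at 5.63% and the B box at 2.32%, each below. Against weaker entries forkhead reversed at 1.60% and 0.662% in the same windows, and GC-box at 0.662% and the B box at 0% with 25 bp. C/EBP (left flank) and CRE (flank 1000 bp away) stood at 0.331%. With each replicate alone CRE was at 0.932 and 1.03% and scrambled AP-1 at 1.03 and 1.86%. Tandem genes were at 57.1% outside noncoding bodies, 56.2% by runs, 54.97% against the weakest entries only and 52.2 to 58.7% with each replicate alone, where divergent genes were at 31.7 to 37.5%. None of these passed.

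No paired analysis was possible because the replicates form 1 group. The unknown depth limits what a rare motif can show. The absence of an untagged group limits every result, those for the GA repeat, ACGCAG and the noncoding classes included. Whether peaks without the tag would show the same was not tested.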
